A study of Rattus norvegicus with 6 samples.

Results

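The NRF2 antioxidant target enzymes were followed here through 9 genes (the members), which were fixed by name: the quinone reductase Nqo1, the carbonyl reductase Cbr3, both subunits of glutamate-cysteine ligase (Gclc and Gclm), the cystine transporter Slc7a11, the thioredoxin reductase Txnrd1, the sulfiredoxin Srxn1, the glutathione peroxidase Gpx2, and Nfe2l2, the gene of the transcription factor NRF2 itself. Each had 1 probe under its symbol in the platform annotation. Thus 9 of the 22523 probes, and 9 of the 13793 probes with a single gene symbol, were concerned. The tissue was non-tumor liver of 6 male Wistar rats on Illumina bead arrays, 1 array per rat. All 6 rats carried the same carcinogen treatment, diethylnitrosamine (DEN) by intraperitoneal injection at 50 mg/kg once a week for 18 weeks, so that neither group stands for normal liver. The EGCG group (EGCG_228, EGCG_234 and EGCG_236) also received epigallocatechin gallate, the main green tea catechin, at 0.02% in the drinking water, given 5 days a week over weeks 13 to 18. The water group (water_224, water_227 and water_237) drank plain water over those weeks. All livers were taken in week 19.

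NRF2 is a transcription factor that the adaptor KEAP1 and the ubiquitin ligase scaffold CUL3 keep low by marking it for degradation. Electrophiles and oxidants modify cysteines of KEAP1, NRF2 then accumulates, pairs with a small MAF protein and binds the antioxidant response element in front of genes for glutathione synthesis, thioredoxin reduction and quinone reduction. In rat liver the pathway is known from carcinogen studies, in which the quinone reductase (DT-diaphorase) and the glutathione enzymes stand high in preneoplastic nodules. NRF2 activity is set largely through the stability of the protein, which an array does not measure.

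The antioxidant response element was looked for as the letters TGACNNNGC on both strands, in windows of 250 bases before to 50 bases after each annotated start (RefSeq, build GRCr8). All 9 genes matched by gene identifier, with 10 windows, since Txnrd1 has a pair of starts. The letters were present in 4 of the 10 windows, those of Gclm, Gpx2, Nfe2l2 and 1 of the starts of Txnrd1, and in 12.1% of all 33465 windows of the same length. In Nfe2l2 the match lies after the start. The other 3 windows are printed because Gclm, Txnrd1 and Gpx2 are enzymes whose levels are followed rat by rat below. They show the 250 bases before the start, 5′ to 3′ on the strand of the gene, with the match in capitals, which in all 3 lies on the opposite strand and so reads GCNNNGTCA here. Gclm lies on the plus strand (chr2:213031885-213032134), Txnrd1 on the minus strand (chr7:22755905-22756154) and Gpx2 on the minus strand (chr6:101230034-101230283). A match of letters describes the sequence and shows no binding. Elements outside these windows were not looked for, so that a window without the letters does not show that the gene lacks the element.
Gclm: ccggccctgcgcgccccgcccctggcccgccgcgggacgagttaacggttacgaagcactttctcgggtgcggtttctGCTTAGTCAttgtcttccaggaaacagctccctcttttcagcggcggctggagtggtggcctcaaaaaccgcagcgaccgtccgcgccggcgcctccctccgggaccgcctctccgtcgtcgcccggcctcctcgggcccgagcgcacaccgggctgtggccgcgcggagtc
Txnrd1: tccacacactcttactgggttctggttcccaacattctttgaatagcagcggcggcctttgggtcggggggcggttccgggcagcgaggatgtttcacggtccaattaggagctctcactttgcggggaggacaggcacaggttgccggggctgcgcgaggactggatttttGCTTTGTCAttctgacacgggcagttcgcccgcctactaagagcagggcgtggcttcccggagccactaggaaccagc
Gpx2: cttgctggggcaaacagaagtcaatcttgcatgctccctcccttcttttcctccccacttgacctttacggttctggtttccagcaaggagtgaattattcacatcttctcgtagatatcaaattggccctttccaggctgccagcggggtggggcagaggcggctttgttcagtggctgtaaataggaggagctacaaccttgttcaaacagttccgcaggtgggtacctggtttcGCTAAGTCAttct

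None of the 9 genes passed the test for a difference between EGCG and water rats. Of the 7 whose probes were bright enough to be tested, 6 stood lower on average with EGCG, by 1.14-fold (Gclm) to 1.59-fold (Txnrd1), while Nfe2l2 stood 1.30-fold higher. The groups did not overlap for Txnrd1, Gpx2, Cbr3 and Nfe2l2, and they overlapped for Nqo1, Gclc and Gclm. EGCG_234 was the lowest of all 6 rats for each of the 6 enzymes tested.

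Values are log2 intensities after background correction with an offset and quantile normalization, and differences are EGCG minus water on that scale, tested with limma over 13514 probes (Benjamini-Hochberg adjusted p under 0.05). With 3 rats per group, an exact permutation test cannot give a two-sided p below 0.1. Over all probes tested, 66 passed, a share of 0.488%, against 0 of the 7 tested members (4 at an unadjusted p under 0.05, against 10.2% of all probes). Groups that did not overlap were found for 4 of the 7 tested members and for 15.4% of all probes tested, with EGCG below for 3 members (7.46% of probes) and above for 1 (7.96%). The median difference of the 7 tested members was -0.32, and it was -0.27 over all 9, beside 0.0045 over all probes tested. The arrays resembled one another (Pearson's r over the probes tested from 0.971 to 0.989), and their non-normalized medians ran from 112 to 120. Of 9 hepatocyte markers measured, 8 lay above the filter and Apob lay below it, on a tissue labelled as liver.

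**Figure D1:**
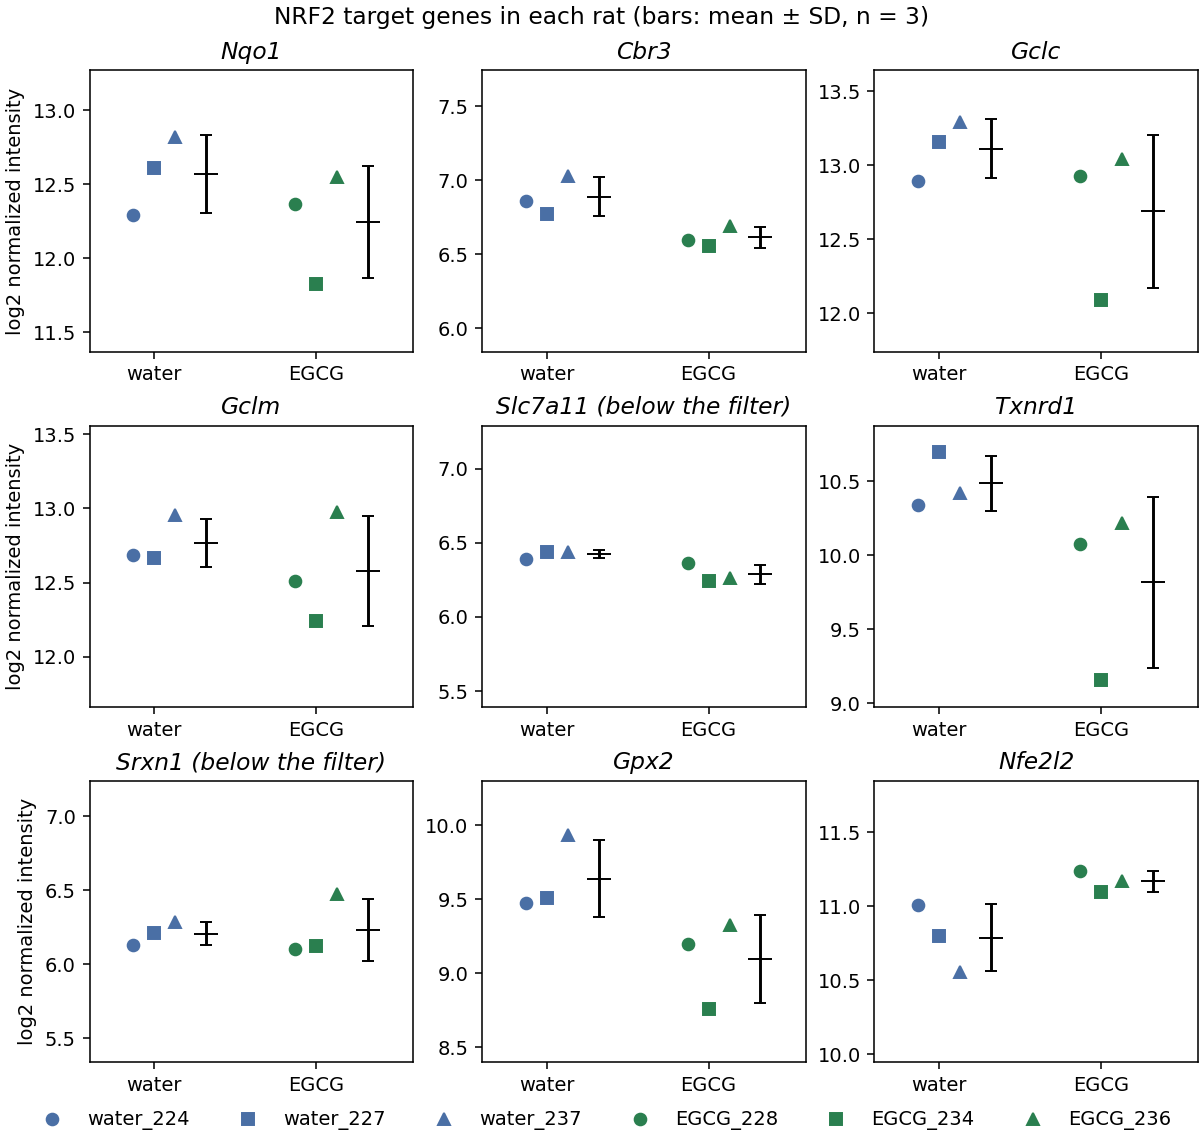
Level of each of the 9 genes in each rat (y axis, log2 normalized intensity; every panel spans the same log2 range; bars are the mean ± SD of 3 rats). EGCG_234, the green square, lies lowest of the 6 rats for Nqo1, Cbr3, Gclc, Gclm, Slc7a11, Txnrd1 and Gpx2, while the EGCG rats lie above the water rats for Nfe2l2.

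Txnrd1 encodes the cytosolic thioredoxin reductase, a selenoenzyme that uses NADPH to keep thioredoxin reduced. Its log2 level was 10.08 in EGCG_228, 9.16 in EGCG_234 and 10.22 in EGCG_236. In the water rats it was 10.34 in water_224, 10.70 in water_227 and 10.42 in water_237. All EGCG rats were below all water rats, but EGCG_228 and EGCG_236 lay close under the water range and EGCG_234 far under it. The EGCG mean was 9.82 ± 0.58 and the water mean 10.48 ± 0.19 (SD of 3 rats each). The difference of -0.67 (SE 0.26, 95% interval -1.23 to -0.10) did not pass (limma adjusted p = 0.382, unadjusted p = 0.0245). It was -0.33 without EGCG_234 and -0.87 without EGCG_236. In the deposited intensities before normalization, Txnrd1 stood at 1121, 609 and 1129 in EGCG_228, EGCG_234 and EGCG_236. In water_224, water_227 and water_237 it stood at 1597, 1864 and 1059. There the groups overlapped through water_237, the array with the lowest mean intensity over all probes (382, against 449 to 531 on the others).

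Srxn1, sulfiredoxin, repairs overoxidized peroxiredoxins and draws on thioredoxin. Its probe was too dim for the filter (mean log2 6.22, below the limit of 6.39), and it was not tested. It read 6.10, 6.12 and 6.47 in EGCG_228, EGCG_234 and EGCG_236, and 6.13, 6.21 and 6.28 in water_224, water_227 and water_237. The groups overlapped, and the difference of means was 0.025. The deposited intensities of this probe ran from 95.7 to 110.2, below the median of each array (112 to 120). No detection value came with the tables, so that these readings may be no more than background.

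Gpx2 is the glutathione peroxidase of epithelia, which reduces hydroperoxides with glutathione and is best known from the gut. Its log2 level was 9.20 in EGCG_228, 8.76 in EGCG_234 and 9.33 in EGCG_236. It was 9.47 in water_224, 9.51 in water_227 and 9.94 in water_237. The highest EGCG rat lay under the lowest water rat, also in the deposited intensities before normalization, which ran from 470 to 617 with EGCG and from 790 to 880 with water. The difference was -0.54 (SE 0.19, 95% interval -0.97 to -0.12), between a water mean of 9.64 ± 0.26 and an EGCG mean of 9.09 ± 0.30 (SD of 3 rats each). With limma it had the lowest p of the 7 members and did not pass (adjusted p = 0.338, unadjusted p = 0.0174). It lay between -0.66 (without EGCG_236) and -0.37 (without EGCG_234) when a rat was left out.

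Nqo1 encodes NAD(P)H quinone dehydrogenase 1, which reduces quinones fully to hydroquinones and is the usual marker of NRF2 activity. Its log2 level was 12.37 in EGCG_228, 11.82 in EGCG_234 and 12.55 in EGCG_236. It was 12.29 in water_224, 12.61 in water_227 and 12.82 in water_237. Only EGCG_234 lay below the water range, and the other EGCG rats lay inside it. The difference of -0.32 (SE 0.22, 95% interval -0.80 to 0.15) did not pass (limma adjusted p = 0.678), and without EGCG_234 it was -0.11.

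Cbr3, a carbonyl reductase of the short-chain dehydrogenase family, had a dim probe (mean log2 6.75, where the filter lay at 6.39). It read 6.60, 6.56 and 6.69 in EGCG_228, EGCG_234 and EGCG_236, and 6.86, 6.77 and 7.03 in water_224, water_227 and water_237. The groups did not overlap, and the EGCG rats lay within 0.14 of one another. The difference was -0.27 (SE 0.11, 95% interval -0.51 to -0.034; limma adjusted p = 0.403, unadjusted p = 0.0286). The offset added in background correction compresses a dim probe, and with an offset of 16 in place of 50 the difference was -0.40.

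Glutamate-cysteine ligase makes the rate-limiting step of glutathione synthesis, with Gclc as the catalytic and Gclm as the modifier subunit. Gclc stood at 12.93, 12.09 and 13.04 in EGCG_228, EGCG_234 and EGCG_236, and at 12.89, 13.15 and 13.29 in water_224, water_227 and water_237. As for Nqo1, EGCG_234 alone lay outside the water range, 0.80 below its lowest rat. The Gclc difference of -0.42 (SE 0.24, 95% interval -0.96 to 0.11) did not pass (limma adjusted p = 0.612), and it was -0.13 without EGCG_234. Gclm stood at 12.51, 12.24 and 12.98 in EGCG_228, EGCG_234 and EGCG_236, and at 12.69, 12.66 and 12.95 in water_224, water_227 and water_237. EGCG_236 was the highest of the 6 rats for Gclm, while EGCG_228 and EGCG_234 lay under the water range. The Gclm difference was -0.19 (SE 0.20, 95% interval -0.63 to 0.25; limma adjusted p = 0.828). It was -0.024 without EGCG_234 and -0.39 without EGCG_236.

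Slc7a11 is the transport subunit of the cystine/glutamate exchanger, which supplies cysteine for glutathione. Its probe lay under the filter too (mean log2 6.36) and was not tested. It read 6.36, 6.24 and 6.26 in EGCG_228, EGCG_234 and EGCG_236, and 6.39, 6.44 and 6.44 in water_224, water_227 and water_237. All EGCG readings lay under all water readings, but the whole range over the 6 rats was 0.20, and the deposited intensities of 98.7 to 115.9 overlapped between groups. As for Srxn1, no detection value shows whether these readings stood above background.

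Nfe2l2 had the opposite sign. Its log2 level was 11.24 in EGCG_228, 11.09 in EGCG_234 and 11.17 in EGCG_236, a range of 0.14. It was 11.01 in water_224, 10.80 in water_227 and 10.56 in water_237, a range of 0.45. The EGCG rats lay above the water rats, and the spread was in the water group. The difference of 0.38 (SE 0.17, 95% interval 0.015 to 0.75) did not pass (limma adjusted p = 0.467, unadjusted p = 0.0429). It was 0.27 without water_237 and 0.50 without water_224. With median scaling, and in the intensities before normalization, the groups overlapped for Nfe2l2 and for Txnrd1.

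**Figure D2:**
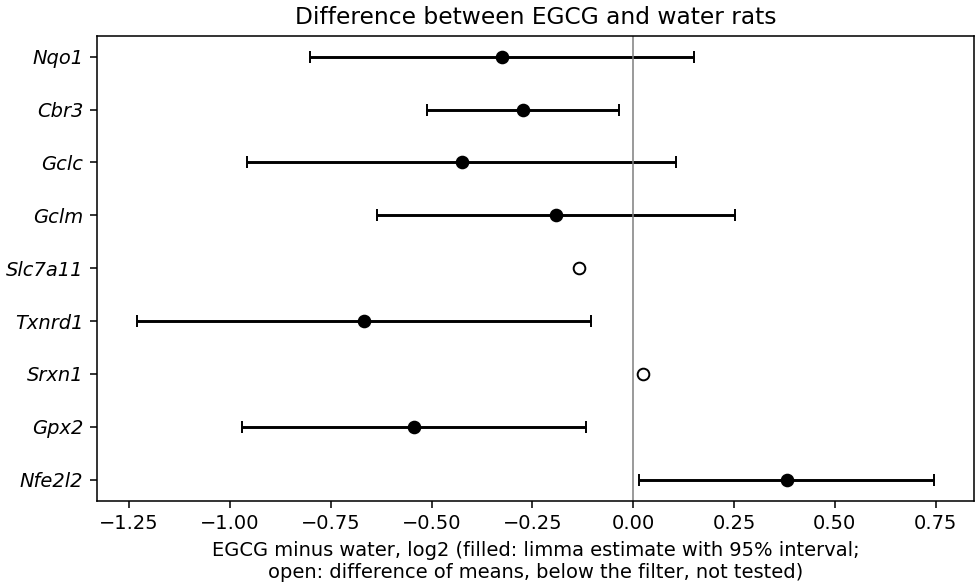
Difference between EGCG and water rats for each gene (x axis, log2; filled points are limma estimates with 95% intervals, 3 rats per group; open points are differences of means of the 2 genes below the filter, which were not tested). The intervals of Nqo1, Gclc and Gclm include 0, and those of Cbr3, Txnrd1, Gpx2 and Nfe2l2 do not, before adjustment over 13514 probes.

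The 6 enzymes tested ranked the EGCG rats alike. EGCG_234 was the lowest, EGCG_228 came next and EGCG_236 was the highest for each of Nqo1, Cbr3, Gclc, Gclm, Txnrd1 and Gpx2, an order found for 20.1% of all probes tested. Nfe2l2 did not share it, with EGCG_228 above EGCG_236. EGCG_234 was the lowest of the 6 rats for 6 of the 7 tested members and for 18.5% of all probes tested. Among the water rats, water_237 was the highest of all 6 for Nqo1, Cbr3, Gclc and Gpx2, against 16.8% of all probes tested, and the lowest for Nfe2l2. These orders were noticed in the data, and the members are measured on the same 6 arrays, so that they do not count as separate observations. Over all probes tested, EGCG_236 resembled the water arrays (mean r 0.979) as closely as its own group (0.979).

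**Figure D3:**
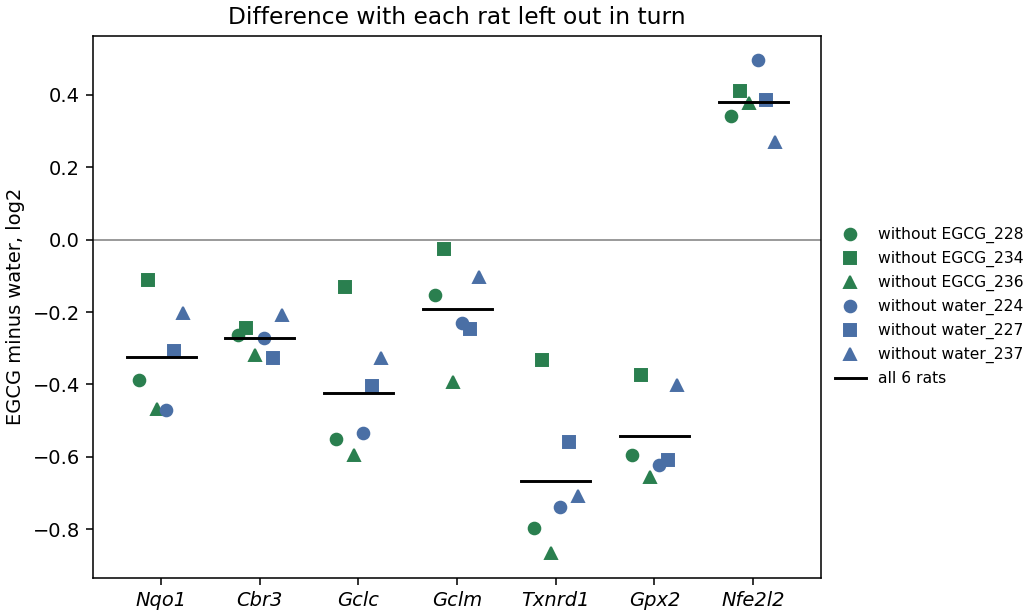
Difference between EGCG and water for the 7 tested genes with each rat left out in turn (y axis, log2; points are the fits without the named rat, lines the value over all 6 rats). Without EGCG_234 the differences of Nqo1, Gclc, Gclm, Txnrd1 and Gpx2 lie nearest to 0, and no point crosses 0.

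Several lists of markers of other cells had lower mean levels in the same EGCG samples. All 6 bile duct markers measured had a difference below 0 and 0 passed, with a mean log2 level of 8.42 to 9.09 over the EGCG rats and 9.31 to 9.70 over the water rats. Of 10 stellate cell and myofibroblast genes listed, 7 were measured. All 7 were below 0, with mean levels of 8.66 to 8.99 with EGCG and 9.27 to 9.68 with water. The 2 that fell were Vim and Dcn (-1.18 and -1.07, both with limma adjusted p = 0.0231), beside 0.566% of named genes that passed. The mean of the hepatocyte list overlapped between groups, at 12.64 to 12.93 with EGCG and 12.85 to 13.06 with water. Of 8 hepatocyte genes tested, 5 were above 0, 3 were below 0 and 0 passed. Groups did not overlap for 2 of the 8, against 16.5% of named genes. These were Tat at -1.17 (limma adjusted p = 0.203) and Ttr at 0.53 (adjusted p = 0.295). Of gut and pancreas genes, 3 of the 4 tested were below 0 and 0 passed, with mean levels of 6.47 to 6.56 and 6.69 to 6.79 over 7 genes. Among these, Cpa1 differed by -1.23 and the other 6 by -0.22 (Vil1) to 0.064 (Pnlip), and Cel, Prss1 and Pnlip lay below the filter. Macrophage genes overlapped (9.23 to 9.75 with EGCG, 9.47 to 9.80 with water; 0 of 7 passed), with 5 below 0 and 2 above it, Cd163 (0.040) and Marco (1.03, adjusted p = 0.131, groups apart). Of 4 neutrophil genes tested 1 fell, Lcn2 (-1.50, limma adjusted p = 0.0412). S100a8 differed by -1.32 (adjusted p = 0.0893), Camp by -0.32 and Mpo by 0.10, while S100a9 (0.073) and Elane (-0.32) lay below the filter. The means over these 6 neutrophil genes were 6.81 to 7.08 with EGCG and 7.36 to 7.66 with water. The part of these cells in the differences of the 9 genes was not tested. In whole tissue, fewer cells of a type and less RNA per cell cannot be told apart.

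The pathway around these genes was described with 4 further lists, on which each gene stands at its brightest probe. Of 59 genes measured, 57 were tested, 1 fell, 0 rose and 56 did not pass, beside 0.566% of 9193 named genes that passed. The median difference of the 57 was -0.083, against 0.0037 over all named genes tested, and it was -0.021 without EGCG_234. Groups did not overlap for 10 of the 57 and for 16.5% of named genes.

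Most regulators had a difference above 0, but none passed. Of 11 tested, 7 had a difference above 0, against 51.3% of all probes tested, and 0 passed, with a median of 0.18. Bach2, a repressor that competes at antioxidant response elements, differed by 0.27 (SE 0.10, limma adjusted p = 0.359) and Keap1 by 0.24 (SE 0.13, adjusted p = 0.611). The Bach2 probe was dim, at a mean of 6.70 with EGCG and 6.44 with water, where the filter lay at 6.39. Bach1 lay below the filter and was not tested. Dpp3, a peptidase that binds KEAP1, differed by 0.24 (SE 0.16, adjusted p = 0.684). Groups did not overlap for 3 of the 11, against 16.5% of named genes. These were Keap1, Bach2 and the NRF2 partner Mafg, all with EGCG above water, which held for 7.96% of all probes tested. The EGCG mean of Mafg was 10.13 ± 0.084 and its water mean 9.94 ± 0.072 (SD of 3 rats each).

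For the NADPH supply, on which glutathione reductase, Txnrd1 and Nqo1 draw, 3 genes were measured and 0 passed. Taldo1, transaldolase of the pentose phosphate pathway, differed by -0.27 (SE 0.15, limma adjusted p = 0.581) with groups that did not overlap. The NADP-dependent Idh1 and Me1 differed by 0.22 and 0.20 (adjusted p = 0.698 and 0.812).

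Of 14 genes tested for the use of glutathione, 10 had a difference below 0, 0 passed, and the median was -0.24, with every pair of groups overlapping. Gstm5, a mu-class glutathione transferase, differed by -0.49 (SE 0.19, limma adjusted p = 0.382). Gsr, which regenerates glutathione from its disulfide, differed by -0.39 (SE 0.19, adjusted p = 0.546), and Gss, which completes glutathione after glutamate-cysteine ligase, by -0.31 (SE 0.19, adjusted p = 0.638). Glutathione transferases of a class are similar in sequence, so that 1 probe may report on more than 1 of them.

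Among 29 further redox and detoxification targets, 19 had a difference below 0, with a median of -0.076. Of these targets, 1 fell and 0 rose, beside 0.566% of named genes that passed. Groups did not overlap for 6 of the 29, 4 with EGCG below and 2 with EGCG above, against 16.5% of named genes. The one that fell was Hmox1, heme oxygenase, which frees iron and biliverdin from heme and answers to BACH1 and heme as well as to NRF2 (-1.65, SE 0.24, limma adjusted p = 0.0197). It stood at 9.14, 9.03 and 8.82 in EGCG_228, EGCG_234 and EGCG_236, and at 11.12, 10.76 and 10.07 in water_224, water_227 and water_237, with no overlap and with EGCG_236, not EGCG_234, lowest. Leaving out EGCG_228, EGCG_234 or water_227 ended the call (adjusted p of 0.0634, 0.0766 and 0.0776), at differences of -1.72, -1.66 and -1.60. In the same samples 3 of 5 red cell genes fell, beside the same 0.566% of named genes. They were the hemoglobin genes Hba-a1, Hbb and Hbb-b1 (log2 differences of -1.57, -1.75 and -1.98, limma adjusted p = 0.00635, 0.0332 and 0.0391). The hemoglobin gene Hba-a2 differed by 0.077 (adjusted p = 0.860) and Alas2 by -0.26 (adjusted p = 0.660). Both had dim probes near the filter. The mean log2 level of Hba-a2 was 6.62 with EGCG and 6.54 with water, and that of Alas2 was 6.60 and 6.86. Hba-a1 stood at 12.97 with EGCG and 14.55 with water. Without detection values, the readings of Hba-a2 and Alas2 cannot be told from background. The part of the red cell genes in the Hmox1 value was not tested. The aldo-keto reductase Akr1b7 differed by -1.85 (SE 0.56, adjusted p = 0.237) and passed only without water_237 (adjusted p = 0.0374). Osgin1, a growth inhibitor induced by oxidative stress, differed by 0.55 with groups that did not overlap (SE 0.19, limma adjusted p = 0.330). Cbr1, the paralog of Cbr3, differed by -0.49 with groups that overlapped (SE 0.20, adjusted p = 0.430).

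**Figure D4:**
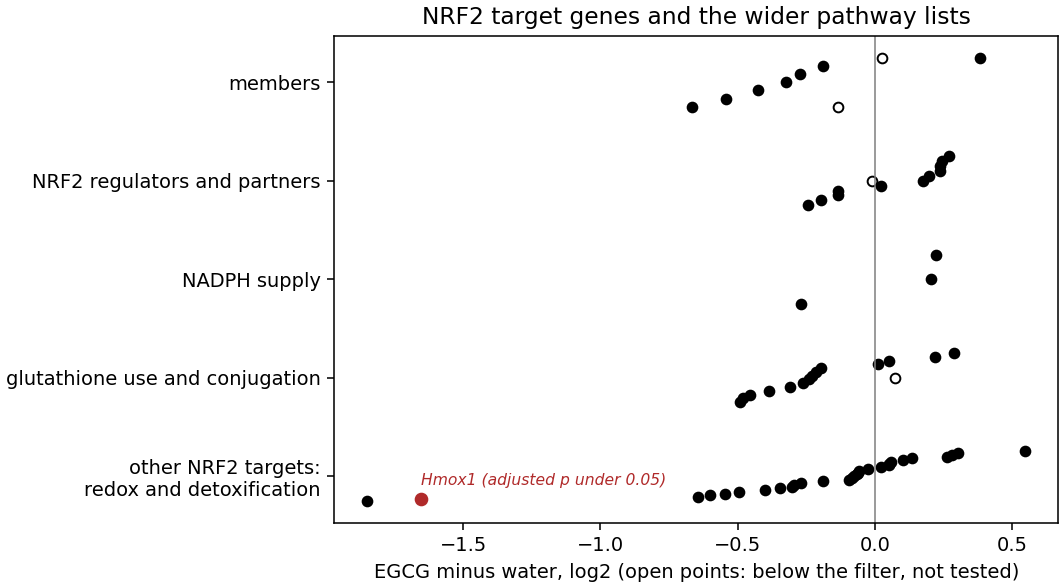
Difference between EGCG and water for the 9 genes and for every measured gene of the 4 wider lists (x axis, log2; filled points were tested, open points lie below the filter; the height within a row has no meaning). Apart from Hmox1, the red point at -1.65, none passed the threshold.

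The genes whose pattern over the rats was most like that of the members were found by Pearson's r over the 6 rats among 9186 other named genes. With the mean of the 7 tested members, each centred and scaled, the highest r belonged to Nifk (0.993), Arrdc4 (0.991), Defb1 (0.990), Car2 (0.982) and Vps35 (0.977). With Nqo1 alone, they belonged to Lmntd1 (0.996), Vps35 (0.987), Ythdf2 (0.986), Arrdc4 (0.986) and Cpa6 (0.981). None of these 8 genes passed the test between groups (limma adjusted p from 0.382 to 0.823). Over so few rats, and as the highest of many, these values describe likeness on these arrays only.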

How the data were processed

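The authors deposited bead intensities of 22523 probes, on a linear scale, in a non-normalized table and in a table normalized between arrays by a method that is not given in the sources used here. The first table held no detection values, bead counts or control probes, and no slide or scan was named. The lowest intensity was 53.4, which alone does not show whether background had been subtracted. The platform annotation gave a single symbol for 13793 probes. The other 8730 had no symbol or more than 1, which were not counted apart.

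The non-normalized intensities were background-corrected (limma normexp, offset 50), brought to common quantiles and log2 transformed. The filter kept the 13514 probes whose mean reached the 40th percentile, log2 6.39. Groups were compared with limma (lmFit, eBayes with an intensity trend, two-sided, no covariates, Benjamini-Hochberg over 13514 probes, threshold 0.05), using R 4.3.3 and limma 3.58.1. The script was tested on simulated data. The labels name 3 rats per group and do not say whether litters or cages were shared. The number of arrays limits the precision.

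The members and gene lists were chosen with earlier results of these data known. The text names all 9 members, in each wider list the genes past the threshold and up to 3 more with the smallest unadjusted p, and the 5 genes most like the members' mean and Nqo1. Mafg, Bach1, Gstm4, the cell type markers and the genes under other observations were named after their values were seen. Alternatives changed the background correction, the normalization, the filter, the variance model and the array weights, used the authors' table, or left out each rat in turn.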

Additional observations from a re-analysis of the deposited data

How the results depend on the processing

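The 7 tested members gave 0 calls under all 16 alternatives and each kept its sign in all 16; Slc7a11 and Srxn1 were tested only without the filter and did not pass (adjusted p = 0.801 and 0.982). Their median of -0.32 ran from -0.47 to -0.13 when a rat was left out and from -0.40 to -0.29 otherwise over the same 7; without the filter, over all 9, it was -0.27. The median of the wider lists, -0.083, ran from -0.11 to -0.021 when a rat was left out. Of the wider lists, 1 gene passed under every alternative with all 6 rats and 0 to 2 with a rat left out; Gstm4 passed only without EGCG_236 (-0.91, adjusted p = 0.0468). Over all probes, 66 passed, 42 without an intensity trend, 172 with array weights and from 12 (without EGCG_228) to 186 (without EGCG_236) when a rat was left out; it was 16 without EGCG_234 or water_227 and 41 without water_237. Groups did not overlap for 5 of the 9 members, 3 with median scaling and 2 before normalization, alternatives chosen after seeing the data. The 5 include Slc7a11, which lay below the filter. With the main processing the share was 15.4% of all probes tested. It was not computed for the other scalings, so that the 3 and the 2 have no share to stand beside. The cause of these shifts was not tested. No paired analysis was possible because the rat numbers in the labels are not shared between groups. Without detection values, signal over background cannot be judged for Slc7a11, Srxn1 and Cbr3, nor for other dim probes such as those of Bach2 and Hba-a2.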

Other observations

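Prdx1 and Prdx6, peroxiredoxins that reduce peroxides, were measured among the 29 further targets, and neither passed. Groups did not overlap for 6 of those 29, 4 with EGCG below and 2 with EGCG above, against 16.5% of named genes. The EGCG mean of Prdx1 was 14.33 ± 0.047 and its water mean 14.63 ± 0.17 (SD of 3 rats each), with groups that did not overlap, and its difference of -0.29 did not pass (limma adjusted p = 0.542). Prdx6 differed by -0.30 with groups that did not overlap (adjusted p = 0.550), and Ugdh, which makes UDP-glucuronate for conjugation, by -0.27 (adjusted p = 0.665), again without overlap. Txn1, the thioredoxin that Txnrd1 reduces, differed by 0.022 (95% interval -0.32 to 0.37). The ferritin genes Fth1 and Ftl1, which store iron, differed by -0.059 (95% interval -0.37 to 0.26) and -0.083 (95% interval -0.41 to 0.24). Nqo2, the paralog of Nqo1, differed by 0.28 (adjusted p = 0.648), and Aldh3a2, a fatty aldehyde dehydrogenase, by 0.30 with groups that did not overlap (adjusted p = 0.573).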
